A study of Oryza sativa Japonica Group with 16 samples.

Results

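The differentially methylated windows of *ta2* lateral root (LR) initials, set against wild type LR initials, are described here along all 12 rice chromosomes. All windows listed for this comparison were taken, whatever their size or direction, which gives 368215 of the 2093419 windows listed in 4 comparisons. Each window is 1000 bp long, windows start every 100 bp, and a base pair therefore lies in up to 10 of them. The authors' deposited table gives, in percentage points, how CHH methylation of each window differed between the genotypes, read as *ta2* minus wild type, so that a positive value means higher in *ta2*. Windows with a gain are called hyper, those with a loss hypo. Every listed difference was at least 10 points in size, with a q-value under 0.01.

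CHH sites are cytosines followed by bases other than guanine at the next positions. Methylation at these sites is not copied by symmetry when DNA replicates and has to be laid down again. In plants DRM2, guided by small RNAs, does this mainly at short transposons along the chromosome arms, and CMT2 does it mainly inside long transposons of heterochromatin. DNA glycosylases such as DNG702 act in the opposite direction and cut methylated cytosines out of DNA. Lateral roots start from a few cells inside an existing root, and an initial is the small cell cluster that precedes the visible root.

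The *ta2* group is a point mutant of the gene for DNG702 with altered splicing of its transcript, and the study turned to it because loss of the gene is lethal, so it is not a null. Its LR initials of stage 1, cell clusters without evident differentiation, were cut from root sections by laser and gave 2 BS-seq libraries, a method that reads methylated cytosines from bisulfite-treated DNA. The wild type group is stage 1 LR initials of plants with an unchanged *DNG702*, whose libraries belong to another series, and the labels give the ZH11 background for all material. A difference between the genotypes and one between library series cannot be told apart here. Crown root (CR) initials of *ta2*, and LR and CR initials of *OxDRM2*, are used below only for comparison. Each is set against the wild type of its root type. *OxDRM2* is a line that overexpresses DRM2 from a ubiquitin promoter. The labels name both a TruSeq DNA Methylation Kit and KAPA reagents for these libraries. The deposited tables analysed here carry no depth, no cytosine counts and no values per replicate, so no difference below carries a replicate error, an interval or a test across replicates. Neighbouring windows share most of their cytosines and are not independent sites.

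CHH methylation was higher in *ta2* nearly wherever a window was listed. The gains numbered 363243 windows, 98.6% of those listed and 9.73% of the 3731909 possible window positions, counted on each chromosome as far as its windows reach. The losses numbered 4972 windows, 0.133% of the positions. Gains covered 82.8 Mb of sequence, 22.2% of 373.2 Mb, while losses covered 2.21 Mb, or 0.592%. Gains thus outnumbered losses by a wide margin in windows and in sequence.

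The median gain was 23.3 points, with quartiles of 15.4 and 36.4 points. Of the gains, 148434 (40.9%) were of 10 to 20 points, 86729 (23.9%) of 20 to 30, 88177 (24.3%) of 30 to 50, 34679 (9.55%) of 50 to 80 and 5224 (1.44%) above 80 points. The median loss was -17.4 points, with quartiles of -26.7 and -12.9 and a lowest value of -99.1. Losses above 50 points in size were found in 331 windows, 80 of them above 80 points. Small changes thus made up the largest class in both directions, and the largest changes were a small minority of windows.

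Each chromosome carried gains at a like density. The share of window positions that were hyper was lowest on chromosome 11, at 7.95%, and highest on chromosome 10, at 10.4%, a ratio of 1.31. Chromosomes 8, 4 and 12 came next above the lowest, with 8.84%, 9.14% and 9.28%, and the other chromosomes lay between 9.68% and 10.3%. Median gains differed even less between chromosomes, from 22.3 points on chromosome 3 to 24.4 points on chromosome 6. The chromosome with the fewest gains did not have the weakest ones, as the median on chromosome 11 was 24.2 points.

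Large gains were divided less evenly. Of the hyper windows of chromosome 6, 14.4% exceeded 50 points, against 8.70% on chromosome 3, the lowest share. Above 80 points, chromosome 6 had 882 windows, chromosome 4 had 668, chromosome 7 had 607 and chromosome 1, the longest, had 589. As a share of window positions, gains above 80 points ran from 0.0764% on chromosome 3 to 0.282% on chromosome 6. Among the 24 arms, the share of positions with a gain above 50 points was highest in both arms of chromosome 6, with 1.43% and 1.40%, and in the short arm of chromosome 4, with 1.41%. The lowest arm shares were 0.843% in the short arm of chromosome 9 and 0.847% in the left arm of chromosome 3.

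**Figure D1:**
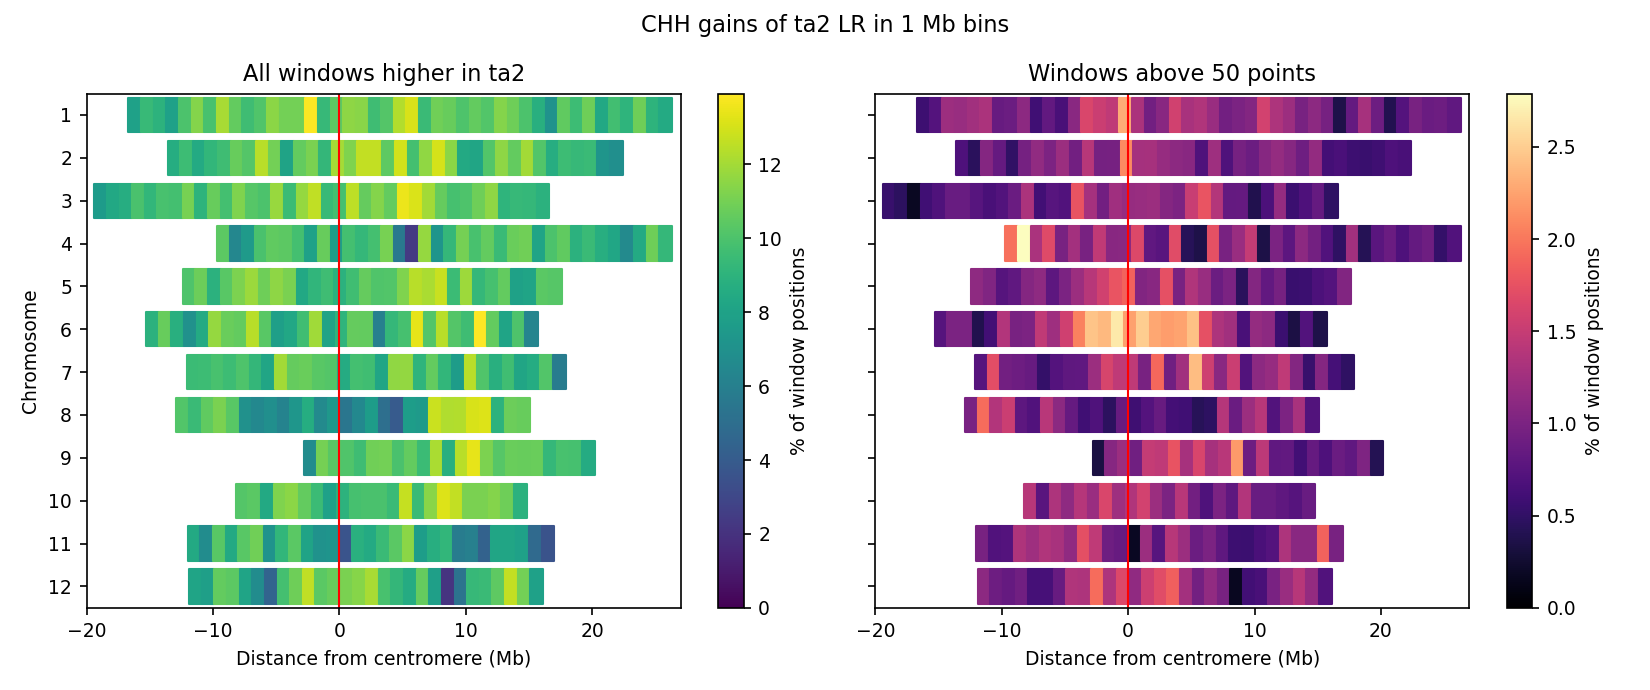
Share of window positions with a gain in *ta2* LR (colour, percent) in 1 Mb bins of the 12 chromosomes, placed by distance from the centromere in Mb, for all gains (left) and gains above 50 points (right); the red line marks the approximate centromere. All gains fill most bins at 8% to 13%, while gains above 50 points stand out over the middle of chromosome 6 and near the short-arm end of chromosome 4, up to 2.79%.

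In 1 Mb bins along the chromosomes, the hyper share averaged 9.72% with a standard deviation of 1.88 over 373 bins, and 306 bins (82.0%) lay between 8% and 13%. The highest bins were chr6:26000001-27000000 with 13.9%, chr1:14000001-15000000 with 13.8%, chr3:24000001-25000000 with 13.5%, and chr9:13000001-14000000 and chr6:21000001-22000000 with 13.4% each (all coordinates are of RGAP version 7.0). None of these bins reached 1.5 times the mean. The lowest bins fell much further from it. They were chr12:20000001-21000000 with 2.09%, chr4:15000001-16000000 with 2.39%, chr11:28000001-29000000 with 3.56%, chr11:12000001-13000000 with 3.63% and chr8:17000001-18000000 with 3.96%. Most bins thus lay near the mean, and 14 were under 6%. Low shares were not confined to those 14 bins. Over chr8:5000001-20000000 the bins ran from 3.96% to 8.62%, so part of the low side was broad.

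The 5 lowest bins were also low in the other tables, though some of them only mildly in *OxDRM2* CR. There chr11:12000001-13000000 was at 15.0% and chr8:17000001-18000000 at 13.2%, and the others at 4.93% to 7.49%. The share over that whole table was 23.7%. In the bin of chromosome 12 the hyper share was 3.62% in *ta2* CR and 3.27% in *OxDRM2* LR, and in that of chromosome 4 it was 2.19% and 2.62%. Whether few cytosines could be read there, or few changed, was not tested, since the tables do not list windows that were tested and left out.

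Gains above 50 points varied more from bin to bin, with a coefficient of variation of 0.416 against 0.194 for all gains. The bin with the most, chr4:1000001-2000000, held them at 2.79% of positions and had 141 windows above 80 points, although its share of all gains was only 6.44%. The next bins were on chromosome 6, with 2.67% at chr6:14000001-15000000, 2.50% at chr6:16000001-17000000, 2.45% at chr6:12000001-13000000 and 2.42% at chr6:20000001-21000000. The median bin had 1.00%. Single bins could thus hold many large gains without a high share of all gains. The bin chr6:18000001-19000000, with 99 windows above 80 points, likewise had only 600 gains among 10000 positions. The bins named above as highest and lowest in all gains went the other way. Gains above 50 points took 1.12% to 1.74% of positions in the highest bins and 0.17% to 0.98% in the lowest. The relation over all bins was not tested.

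Sequence within 2 Mb of a centromere was compared with the rest of the arms and with the outermost 2 Mb at chromosome ends. Centromere positions are approximate. Near centromeres 9.54% of positions were hyper, against 9.92% in the arms, a ratio of 0.96, and 6 of 12 chromosomes had the higher share near the centromere. Chromosome ends were at 8.85%, a ratio to the arms of 0.89, and on 10 of 12 chromosomes the end had less than the arm. With only the positions listed in any of the 4 tables as the denominator, both ratios came to 1.02. That denominator includes the gains themselves and is not the set of testable positions, which is unknown. The order of the zones over testable positions therefore cannot be given.

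The order changed with the size of the gain. Above 50 points, 1.36% of positions near centromeres were hyper, against 1.04% in the arms, a ratio of 1.30. Above 80 points, the shares were 0.235% near centromeres and 0.124% in the arms, a ratio of 1.90. For gains above 50 points the ratio averaged 1.27 over chromosomes with a standard deviation of 0.34 (n = 12), was above 1 on 9 of them, and ran from 0.69 on chromosome 8 to 1.90 on chromosome 6. Leaving out chromosome 6, it was 1.23 over the rest, and over all such omissions it stayed between 1.23 and 1.35. For gains above 80 points the range was from 0.63 on chromosome 3 to 3.18 on chromosome 6, so the chromosomes did not share 1 pattern. The limits of 50 and 80 points were chosen with these data in view.

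When each arm was divided into 10 equal parts from centromere to end, the same turn was seen in finer steps. Gains of every size together were at 0.98 times their genome share in the part next to the centromere, highest in part 4 at 1.06, and at 0.90 in the last. Gains above 50 points stood at 1.27 in part 1 and at 0.79 in the last. Gains above 80 points were at 1.72 in part 1, 0.45 in part 6 and 0.86 in the last. Losses took the other course, with 0.76 in part 1 and 1.25 in part 9.

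**Figure D2:**
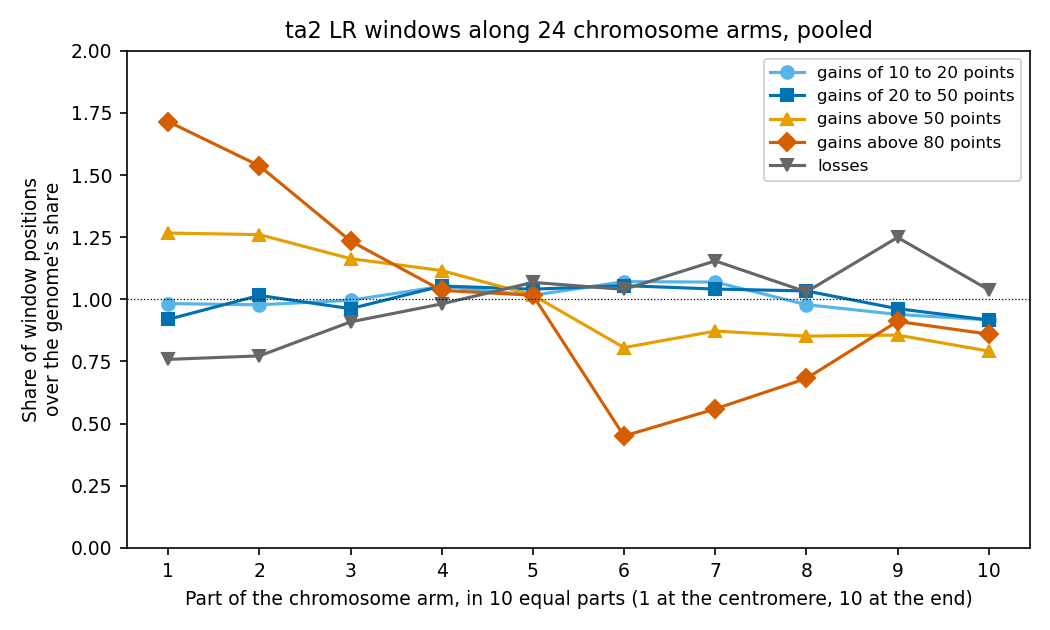
Share of window positions over the genome's share (y axis, ratio) in each of 10 equal parts of the 24 chromosome arms pooled, from the centromere (1) to the end (10), with 1 line per class of gain and 1 for losses. Gains of 10 to 50 points stay near 1 throughout, while gains above 80 points are at 1.72 beside the centromere and 0.45 in part 6.

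At chromosome ends the largest gains were divided unevenly. In the outermost 2 Mb, gains above 80 points were at 1.14 times their arm share, but only 3 of 12 chromosomes were above 1. Chromosome 4 reached 4.14, chromosome 11 reached 2.63 and chromosome 8 reached 1.64, while chromosome 6 was lowest at 0.17. Over the chromosomes left, the ratio was 0.85 without chromosome 4 and 1.00 without chromosome 11. On chromosome 4 it is the bin at 1 to 2 Mb, described above, that holds most of these windows.

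Merging overlapping or touching hyper windows gave 44534 regions. Their median length was 1900 bp, with quartiles of 1300 and 2000 bp, and the longest was 9400 bp. A length of exactly 1900 bp was by far the most frequent, with 9290 regions (20.9%), against 2258 regions of 1800 bp and 2928 of 2000 bp. This is the span of the 10 windows that contain any 1 base pair, and 7016 of the 9290 regions (75.5%) had all 10 windows listed. The changed sequence inside such a region can therefore be much shorter than the region. Within these full regions the highest window exceeded the lowest by a median of 13.2 points, on a median mean of 27.3 points.

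Regions of a single window numbered 5534 (12.4%), and 12993 (29.2%) were longer than 1900 bp, 1006 of them (2.26%) longer than 4000 bp and 5 longer than 8000 bp. The mean gain of a region was higher in longer regions up to about 2 kb, and lay near the same level beyond. The median regional mean was 13.4 points for single windows, 16.8 for lengths over 1000 and up to 1500 bp, 23.4 up to 1900 bp, 27.2 up to 2500 bp, 25.4 up to 4000 bp and 26.8 beyond. The highest window of a region differed with length in every class, with medians of 13.4, 19.7, 32.0, 39.4, 42.2 and 49.0 points from single windows to the longest regions. A longer region has more windows from which the highest is taken, so this rise is in part built in. Single windows, with 10 points as the lowest value a table can hold, had a lower quartile of 11.1 points.

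**Figure D3:**
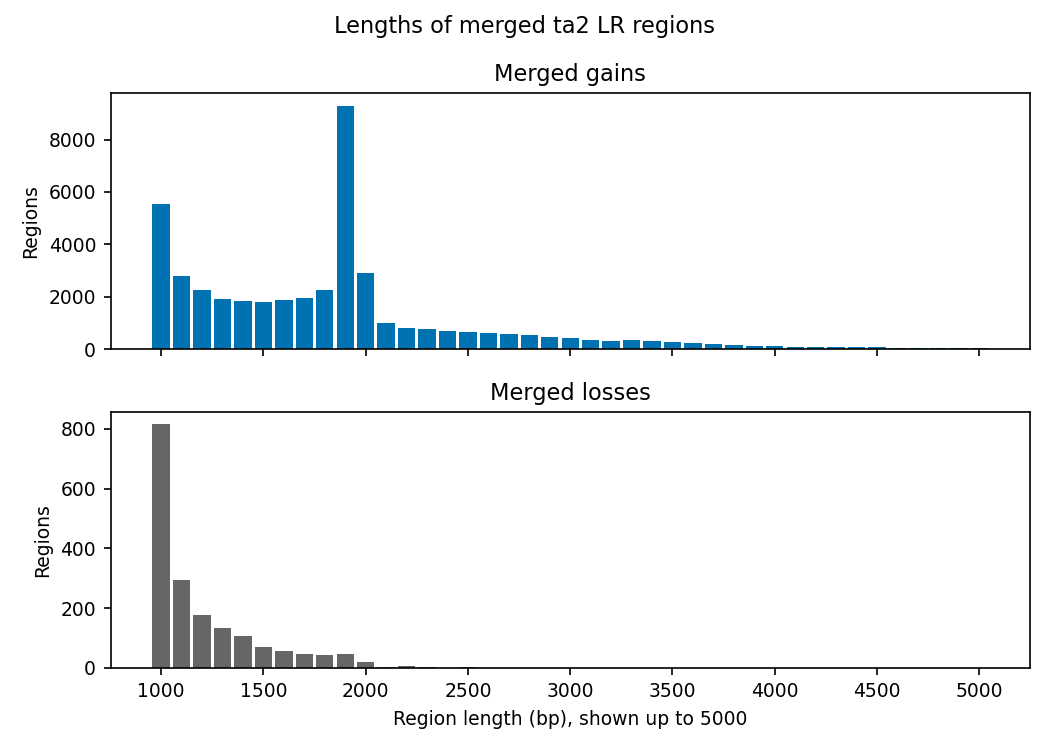
Number of merged regions (y axis) by length in bp up to 5000 (x axis), for gains above and losses below. Gains peak at 1900 bp with 9290 regions, while losses are most often a single window of 1000 bp, with 816 of 1830 regions.

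The longest gains were moderate in size. The longest of all, chr1:39150001-39159400, held 58 windows of 11.2 to 54.9 points with a mean of 31.4. It was followed by chr1:30681901-30690800 and chr12:3726301-3735200, of 8900 bp each with means of 24.3 and 22.0 points, and by chr2:7571601-7580000 and chr2:7963201-7971600, of 8400 bp with means of 35.4 and 24.4. All of these lay in arms, more than 5 Mb from a centromere, and *ta2* CR had between 40 and 60 listed windows in each. Their means lay far below those of the strongest gains given below.

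Gained regions followed each other closely. Between neighbouring hyper regions the median gap was 4100 bp, with quartiles of 1600 and 8600 bp, and 7.57% of gaps were under 500 bp. Regions numbered from 103 per Mb on chromosome 11 to 126 per Mb on chromosome 10. Only 4.97% of gaps exceeded 20 kb, 139 exceeded 50 kb and 35 exceeded 100 kb. The longest stretch without a gain, chr11:12194401-12554300, spanned 359900 bp.

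The 35 stretches over 100 kb added up to 5.55 Mb and were found on 7 chromosomes, with 10 on chromosome 11, 7 each on chromosomes 4 and 12, 6 on chromosome 8, 2 each on chromosomes 7 and 9, and 1 on chromosome 6. These include the 4 chromosomes with the lowest hyper shares. With the stretches left out, the share on chromosome 11 was 8.40% and on chromosome 8 it was 9.15%, and the ratio of highest to lowest chromosome was 1.24 in place of 1.31. In the same stretches *ta2* CR was hyper at 0.675% of positions, over the 33 stretches its table reached, and *OxDRM2* LR at 0.499%, against 10.4% and 12.6% over their whole tables. *OxDRM2* CR was at 1.93% there, against 23.7% over its whole table. The stretches, chosen for holding no gain in *ta2* LR, were thus poor in listed gains in the other comparisons too. Of these, *OxDRM2* LR shares the wild type LR libraries.

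Regions far from any other gain were rare but more often strong. Among 197 regions with no other hyper region within 20 kb, 10 (5.08%) had a mean above 80 points, against 0.420% of the 14062 regions with another gain within 1000 bp. For gaps to the nearest region of 1 to 5 kb the share was 0.666%, and for 5 to 20 kb it was 1.09%. The medians of the regional means differed little, at 23.6 points for the isolated regions and 20.9 points for the closest ones, so the difference lay in the upper tail.

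The strongest gains were nearly complete changes of state. Of 30550 hyper regions with 5 or more windows, 248 had a mean above 80 points. Chromosome 6 had 54 of them, chromosome 4 had 36, chromosome 7 had 30, chromosome 1 had 28 and chromosome 11 had 25. These counts are not corrected for chromosome length. Within 2 Mb of a centromere, a zone of 48 Mb out of 373.2 Mb, lay 61 of the 248. The bins with most were chr4:1000001-2000000 with 11 and chr6:18000001-19000000 with 9. A gain of this size leaves room for only low CHH methylation in wild type and requires nearly full methylation in *ta2*. The number of cytosines behind each window is unknown.

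At the top stood chr7:14156301-14158000, whose 8 windows ranged from 95.3 to 98.4 points with a mean of 97.4. No window was listed there in *ta2* CR, and the windows listed in *OxDRM2* LR averaged 97.7 points. In *OxDRM2* CR, set against the wild type of CR, 8 windows averaged 95.8 points. The region chr5:12523301-12525200, beside the centromere, had a mean of 97.4 points over 10 windows from 96.6 to 98.5. It was the only one of the 10 strongest gains with no listed window in any of the other 3 comparisons.

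Chromosome 6 held 5 of the 10 strongest gains. At chr6:18960601-18962500 the mean was 97.3 points over 10 windows, and at chr6:18507601-18509500 it was 97.0 points, again over 10. Neither had a listed window in *ta2* CR, and in *OxDRM2* LR the means were 95.3 and 63.8 points. In *OxDRM2* CR the first of them had 10 windows with a mean of 97.8 points and the second had none. A few kb before the second of these lies chr6:18500701-18502100, with 95.9 points over 5 windows, against 75.1 in *ta2* CR and 84.8 in *OxDRM2* LR. The remaining pair was chr6:7900601-7902500, with 96.3 points, against 81.5 in *ta2* CR and 96.7 in *OxDRM2* LR, and chr6:19297101-19299000, with 95.7 points, against 95.5 and 95.9. The last of these thus had the same size of gain in both root types of *ta2*.

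The other 3 were chr8:12927901-12929500 at the centromere of chromosome 8, with a mean of 95.8 points, and chr7:14205501-14207100 and chr7:1455401-1457000, with 95.4 points each. In *ta2* CR only chr7:14205501-14207100 had listed windows, with a mean of 91.2 points. In *OxDRM2* LR the means were 96.2, 91.5 and 94.6 points. *OxDRM2* LR was compared with the same wild type LR libraries, so its values are not independent of those of *ta2* LR. *OxDRM2* CR, set against other libraries, had listed gains at 6 of the 10 places, with means between 82.1 and 97.8 points.

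**Figure D4:**
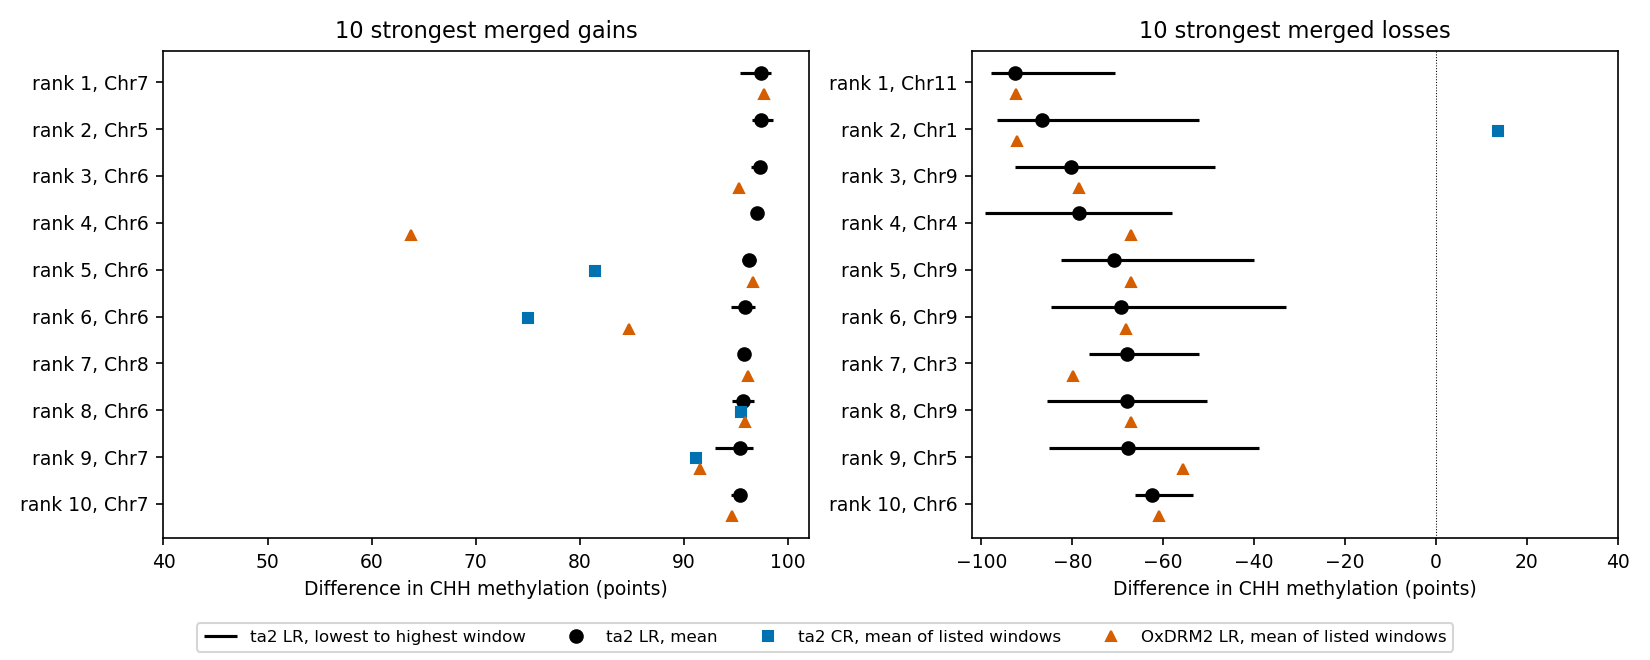
Difference in CHH methylation in points (x axis) for the 10 strongest merged gains (left, axis from 40) and losses (right), ranked by mean; lines run from the lowest to the highest *ta2* LR window, circles are *ta2* LR means, squares *ta2* CR and triangles *OxDRM2* LR means of listed windows, and a missing marker means no listed window or, for *ta2* CR on chromosome 9, a part not analysed. All mean gains exceed 95 points in *ta2* LR, while *ta2* CR shows a marker at 4 of 10 gains and at 1 of 10 losses.

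Losses were few, short and scattered. The 1830 hypo regions had a median length of 1100 bp and a longest of 4400 bp, and 816 of them (44.6%) were single windows. The median 1 Mb bin held 12 hypo windows, 8 bins held none, and the highest were chr6:1000001-2000000 with 64, chr4:11000001-12000000 with 59, chr1:39000001-40000000 with 52, and chr9:7000001-8000000 and chr8:25000001-26000000 with 41 each. Near centromeres the hypo share was 0.71 times that in the arms. For losses above 50 points it was 1.77 times, on 65 windows near centromeres and 213 in the arms, but only 4 of 12 chromosomes had the higher share near the centromere. Without the group of 3 hypo regions at chr4:11315601-11329000, 23 windows were left near centromeres and the ratio was 0.63. Large losses were most frequent on chromosomes 4, 9 and 1, with 60, 57 and 44 windows above 50 points.

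Distances from losses to gains were mostly short. Of the hypo regions, 752 (41.1%) overlapped a hyper region, 60.4% lay within 1000 bp of one, and the median distance was 301 bp. The gains themselves cover 22.2% of the sequence at short intervals, so a short distance to one is common for any place. That share counts base pairs, and the share for places as long as the hypo regions is higher and was not computed. Whether losses lay closer to gains than other places was therefore not tested. Of the 52 hypo regions with a mean loss above 50 points, 11 overlapped a hyper region.

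Only 20 of 318 hypo regions with 5 or more windows had a mean loss above 50 points. The strongest was chr11:20573301-20574900, whose 7 windows ranged from -97.8 to -70.6 points with a mean of -92.7. At chr1:39492301-39496400 the mean of 25 windows was -86.7 points, and this was also the second longest loss, at 4100 bp. Chromosome 9 had 4 of the 10 strongest. They were chr9:10925101-10927600 with -80.2 points, chr9:7925001-7928100 with -70.9, and at the chromosome's end chr9:1501-3300 with -69.3 and chr9:17301-19100 with -67.9. Large losses on this chromosome thus lay at its end and in its long arm.

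The region chr4:11315601-11319400 had a mean of -78.5 points over 25 windows, with the lowest single window of the table, -99.1. With chr4:11325001-11329000, of 4000 bp and -47.3 points, it belonged to a group of 3 hypo regions with 54 windows at chr4:11315601-11329000. Another group of 3, with 23 windows and a mean of -47.6 points, was at chr6:9353201-9362500 and included chr6:9356501-9358400 with -62.6 points. The remaining strong losses were chr3:36314901-36316600 with -68.0 points and chr5:26831401-26833300 with -67.8. The longest loss, chr6:1388701-1393100, spanned 4400 bp with a mean of -35.6 points. Strong losses thus occurred as single places or tight groups, not as broad domains.

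None of the 10 strongest losses had a window with a loss in *ta2* CR, for the 6 of them its table reached. At chr1:39492301-39496400 *ta2* CR had 2 listed windows, both gains, with a mean of 13.6 points. In *OxDRM2* LR, set against the same wild type LR libraries, the listed windows at these 10 places averaged from -92.4 to -55.6 points. Over the sequence common to all tables, losses above 50 points numbered 272 in *ta2* LR, 1 in *ta2* CR, 335 in *OxDRM2* LR and 2 in *OxDRM2* CR. At the 10 places *OxDRM2* CR listed no loss, and it listed gains at chr4:11315601-11319400, with 10 windows and a mean of 18.1 points, and at chr3:36314901-36316600, with 8 windows and 19.9 points. Large losses were thus frequent in both comparisons with the wild type LR libraries and nearly missing from both with the wild type CR libraries. The part of the wild type LR libraries and that of the root type in these losses cannot be told apart.

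Chromosome tips, taken as the outermost 20 kb, differed from one another. The first 20 kb of chromosome 4 had 28 hyper windows with a median of 66.6 and a highest of 97.4 points, and those of chromosome 8 had 12 with a median of 77.6. The outermost listed window was a gain of 89.7 points at the start of chromosome 1, of 84.3 at the start of chromosome 7 and of 97.3 at the far end of chromosome 5. At the start of chromosome 9, in contrast, no gain was listed, and 14 hypo windows had a median of -78.1 points. The start of chromosome 3 and the far end of chromosome 7 had no listed window. Gains were weak at some other tips, with medians of 12.6 points at the far end of chromosome 6 and 11.8 at that of chromosome 11. Tips thus differed in size, while only the start of chromosome 9 held more losses than gains.

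The landscape of *ta2* LR was set beside that of *ta2* CR over the 345.4 Mb that both tables cover. Hyper windows took 9.67% of positions in *ta2* LR and 10.4% in *ta2* CR, with median gains of 23.2 and 20.2 points. Gains above 50 points made up 11.05% of the hyper windows in *ta2* LR and 7.53% in *ta2* CR, so *ta2* LR had fewer but larger listed gains. The ratios of the shares near centromeres to those in the arms were close in the 2 root types, with 1.32 in *ta2* LR and 1.26 in *ta2* CR above 50 points, and 1.95 and 1.83 above 80 points. Regions of exactly 1900 bp made up 20.9% of hyper regions in *ta2* LR and 20.7% in *ta2* CR. For *OxDRM2* LR the corresponding values were 12.6% of positions, a median of 20.7 points, 8.09% above 50 points, ratios of 1.27 and 1.83, and 17.5% of regions at 1900 bp.

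At the level of single windows, 185486 gains were listed in both root types of *ta2*, 55.5% of those of LR and 51.6% of those of CR. Over all positions, 10.4% were hyper in *ta2* CR and 9.67% in *ta2* LR. The share of LR gains also listed in CR was 40.7% for gains of 10 to 20 points, 58.8% for 20 to 30, 68.4% for 30 to 50, 74.9% for 50 to 80 and 75.1% above 80. Larger gains were therefore more often listed in both, and the share did not differ much between the last 2 classes. By zone the share was 57.2% near centromeres, 55.6% in the arms and 53.3% at the ends. In shared windows the gain was larger in LR in 64.9%. Gains of LR that were losses in CR numbered 331 of 334185, and 0.131% of all positions were hypo in *ta2* CR.

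**Figure D5:**
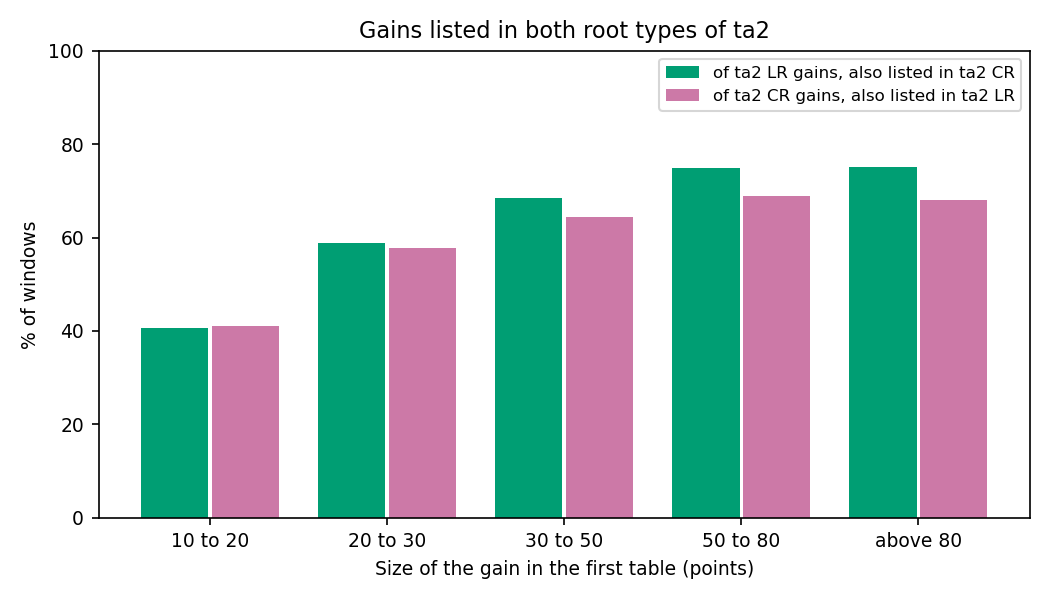
Percent of hyper windows (y axis) of *ta2* LR also hyper in *ta2* CR, and of *ta2* CR also hyper in *ta2* LR, by size of the gain in points in the first table (x axis). The share of *ta2* LR gains listed in both is 40.7% for 10 to 20 points and 75.1% above 80 points.

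Few losses were listed as losses in both. Of the 4497 hypo windows of *ta2* LR in the common sequence, 80 (1.78%) were hypo in *ta2* CR, where 0.131% of all positions were hypo. A further 852 (18.9%) were hyper in *ta2* CR, where 10.4% of all positions were hyper. In 1 Mb bins, the hyper shares of *ta2* LR and *ta2* CR followed each other (Pearson's r = 0.89 and Spearman's rho = 0.85 over 345 bins), as a description of bins that share their sequence, their cytosine content and how well reads map to them. The root types thus had a like broad distribution of gains, while many single windows were listed in only 1 of them.

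Few loci of the study could be placed, since no annotation of RGAP version 7.0 was given. Promoter positions of 200 bp were read for 1997 loci from a shortened list that the study drew up with the wild type libraries. The list holds loci whose transcription the study found correlated with promoter CHH methylation. Each position is the promoter bin where that correlation was highest, so these places do not stand for promoters at large. Only windows that contain the whole position were counted. Of 65 loci named in the study for methylation or root development, 3 had such a position. The paper associates *RL9*, a ribosomal gene, with regulation by CHH methylation in LR only. *RL9* had 3 hyper windows over its position with 30.6, 23.1 and 23.1 points. Stronger windows lay next to it, with up to 66.9 points at chr2:35318501-35319500. *RDR2*, an RNA-dependent RNA polymerase that makes the double-stranded precursors of small RNAs in the DRM2 pathway, had 2 windows of 10.0 and 10.3 points, at the limit of listing. *MCM8*, a DNA replication and repair helicase, had none over its position in *ta2* LR. Beside it, at chr5:22787101-22788500, listed windows gained 10.4 to 36.0 points. In *OxDRM2* LR the mean over the position was 13.3 points.

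Among all placed loci the largest mean gain over the position was that of LOC_Os01g05810 on chromosome 1, with 90.4 points over 4 windows, against 78.0 points in *ta2* CR. LOC_Os01g51270 and LOC_Os01g18090 followed with 81.8 and 81.1 points, against 79.96 and 69.9 points in *ta2* CR. The rest of the first 10 lay between 65.4 and 76.5 points. Each value is a mean of listed windows only, out of 8 that contain the position. LOC_Os01g31370, with 76.1 points, and LOC_Os10g25060, with 66.1, rested on 1 window each. LOC_Os10g25060 and LOC_Os02g34930, the latter with 72.3 points, had no listed window in *ta2* CR. The largest loss was that of LOC_Os07g48980, with a mean of -58.7 points over 2 windows, against a mean gain of 14.6 points in *ta2* CR. The next 9 losses lay between -30.8 and -10.6 points, on 1 to 3 windows each.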

How the data were processed

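BS-seq of 2 *ta2* LR libraries was compared with wild type LR by the authors. Reads were mapped to RGAP version 7.0 with BS-Seeker2 2.1.8, and replicates were pooled. The submitters' processing notes also name methylKit. Each window in the authors' deposited table carries a p-value, a q-value and a difference in percentage points, with nothing per replicate. The Methods describe windows of 50 bp, whereas the deposited windows were checked to be 1000 bp long at steps of 100 bp. The p-values were used only for a filter at 0.001. The sign of the difference is not explained in the table and was read as *ta2* minus wild type. Windows not listed may be unchanged or untested. The deposited tables carry no depth per sample, and read totals stated in the paper were not used here.

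Possible window positions were counted on each chromosome as far as its windows reach. Windows of 1 direction that overlap or touch were merged. Centromere positions were entered from general knowledge of RGAP version 7.0, not read from a file, and are approximate. The *ta2* CR table as read ends on chromosome 8 and holds no chromosome 9, so comparisons with it used 345.4 Mb. No test was run, since windows are not replicates. Merging and counting were tested on simulated data. Named were the 10 strongest gains and losses of at least 5 windows, the 5 longest of each, the 5 highest and lowest 1 Mb bins, the placed loci of the study's list and up to 10 placed loci with the largest gain and loss. Further bins, tips, isolated regions and groups of losses were chosen after their values were seen. Members and lists were chosen with earlier results of these data known. Scripts ran in Python 3.11.15 with pandas 2.3.3 and numpy 2.4.6, and plots were drawn with matplotlib 3.10.9.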

Additional observations from a re-analysis of the deposited data

How the results depend on the processing

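Raising the limit from 10 points left 214809 gains and 1993 losses above 20 points, 128080 and 1010 above 30, and 39903 and 331 above 50. Counting only windows that do not overlap left 36330 gains and 513 losses. With P under 0.001 the counts were 363198 and 4939. Merging windows up to 500 bp apart covered 84.02 Mb with gains, against 82.8 Mb. Above 30 points there were 22075 gained regions with 34.1 Mb and a median length of 1500 bp, and 354 lost regions with 0.432 Mb. The share of gains near centromeres over that in arms, 0.96, was 0.93 within 1 Mb, 0.98 within 4 Mb, 0.97 with centromeres 0.5 Mb higher, 1.01 above 30 points, 1.30 above 50, 1.90 above 80 and 1.02 over listed positions. The ratio for chromosome ends, 0.89, was 0.86 for the outermost 1 Mb, 0.88 above 50 points, 1.14 above 80 and 1.02 over listed positions. The chromosome ratio was 1.26 by covered base pairs and 1.24 without long stretches that hold no gain. The ratio of highest to lowest bin, 6.66, was 27.3 in 500 kb bins. The limits of 50 and 80 points for the zones, the moved centromeres, listed positions, the stretches and the omissions given with the zones were chosen after seeing the data. No paired analysis was possible because each table holds 1 comparison of pooled replicates, and leaving out a replicate was not run for the same reason. Without coverage per window, no interval can be given, and large values cannot be weighed by depth.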
